A study of Mus musculus with 5 samples.

Results

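The p53 pathway genes described here are 34 listed mouse genes, comprising the p53 gene, its regulators and targets of the p53 protein in arrest, death, repair and other roles. They were taken by symbol from the platform annotation, with 1 probe set per gene, the brightest by its mean over all 5 arrays. Of the 34, 30 were found among the 18193 genes named on the array. Trp53, Bax, Gdf15 and Fdxr were not analysed here. All 30 had a signal above a floor of 86.8 on at least 1 array and 26 had one on all 5 arrays. The floor is the median over all probe sets other than controls, and lower signals were raised to it before log2 was taken.

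The cells were derived from mouse embryonic stem (ES) cells, which can form the tissues of the embryo, and were led towards a pancreatic fate on plates coated with gelatin. The 5 groups had 1 Affymetrix array each: cells at day 5 without MPA, cells given 2 µM MPA from day 5 to day 6, untreated day 6 cells, cells given 2 µM MPA from day 5 to day 8, and untreated day 8 cells. The labels give only the abbreviation MPA and name no ES cell line or genotype. With 1 array per group no value has a spread between cultures, a difference between 2 arrays has no test, and the number of arrays limits the precision.

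p53 is a transcription factor that is kept at a low level by its ubiquitin ligase Mdm2 and is stabilised after DNA damage, nucleolar stress or nucleotide shortage. It then switches on genes that halt the cell cycle, that prime or carry out cell death, that aid DNA repair and that feed back on p53 itself. In ES cells and their early derivatives the pathway is known for linking such stress to loss of cells and to differentiation.

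Promoter sequence is shown for 6 members because p53 acts by binding DNA and because these 6, each with a paired or a single site, differ in their values. The RefSeq promoter windows (build GRCm38.p6) run from 250 bases before to 50 bases after a gene's start and cover 22 of the 30 members. They were searched for the p53 consensus half-site, a motif of 10 bases named here without its letters, which reads the same on both strands. At least 1 exact half-site was found for 10 of the 22 members (45.5%), against 9.55% of all 27025 genes with a window. Some genes have several windows, and per window the shares were 33.3% of 33 against 8.36% of 32851. Paired sites, 2 half-sites at most 13 bases apart with at most 1 mismatch in 20 bases, were found for Ccng1, Cdkn1a, Polk and Rps27l (18.2%), against 1.24% of all genes. Each paired site holds at least 1 of the exact half-sites. The match is of letters only and shows no binding. The members were listed as genes of the p53 pathway, so shares above those of all genes are no independent evidence.

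The stretches below are 120 bases on the gene's own strand, all upstream of the RefSeq start, with the matched bases in capitals. The paired sites come first, and the single half-sites of Mdm2 and Gadd45a follow. Cdkn1a lies at chr17:29090859-29090978, plus strand, Ccng1 at chr11:40755412-40755531, minus strand, and Polk at chr13:96519318-96519437, minus strand. Rps27l lies at chr9:66946246-66946365, plus strand, Mdm2 at chr10:117710880-117710999, minus strand, and Gadd45a at chr6:67037408-67037527, minus strand.
Cdkn1a: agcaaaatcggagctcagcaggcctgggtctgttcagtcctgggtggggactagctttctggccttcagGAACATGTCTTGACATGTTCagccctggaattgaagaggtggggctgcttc
Ccng1: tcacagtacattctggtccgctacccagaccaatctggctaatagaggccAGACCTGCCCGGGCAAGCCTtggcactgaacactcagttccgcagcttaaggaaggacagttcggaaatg
Polk: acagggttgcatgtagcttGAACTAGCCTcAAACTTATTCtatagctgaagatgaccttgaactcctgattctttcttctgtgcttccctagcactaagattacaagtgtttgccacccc
Rps27l: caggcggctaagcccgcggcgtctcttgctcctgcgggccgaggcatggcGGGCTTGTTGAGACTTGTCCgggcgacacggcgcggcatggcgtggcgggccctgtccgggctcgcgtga
Mdm2: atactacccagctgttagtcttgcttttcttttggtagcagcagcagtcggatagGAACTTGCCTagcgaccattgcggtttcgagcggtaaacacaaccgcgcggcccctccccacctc
Gadd45a: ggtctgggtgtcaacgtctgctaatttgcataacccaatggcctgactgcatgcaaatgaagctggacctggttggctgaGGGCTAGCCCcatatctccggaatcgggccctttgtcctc

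The Cdkn1a pair begins 51 bases before the start with no base between the half-sites, and the Ccng1 pair begins 195 bases before it. Cdkn1a, Polk and Rps27l have further RefSeq starts, whose windows hold no such pair. Cdkn1a and Ccng1 were higher with MPA at both days, while Rps27l, whose pair begins 117 bases before the start, hardly differed between MPA and control. Of the members 2-fold apart at day 6 or day 8, or at least 1.5-fold apart the same way at both, and Mdm2, 10 had a window and 3 of these held a half-site. Of the other members 12 had a window and 7 held one. Trp53inp1, Perp, Pmaip1, Tnfrsf10b and Ddb2, also of the first kind, had no window, so the 2 counts do not compare the full groups. The windows of Plk2, Phlda3, Fas, Eda2r and Btg2 do not hold these letters. Sequence outside the windows was not searched for any member, so sites elsewhere in or near these genes would be missed.

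Most of the members had a higher signal with MPA after 1 day, and fewer did after 3 days. At day 6, 25 of 30 were higher in MPA cells than in untreated cells and 5 lower, where 51.5% and 48.5% of all 12240 genes measured were. Differences of 1.5-fold or more upwards were found for 18 (12.8% of all genes), of 2-fold or more upwards for 7 (4.02%) and of 2-fold or more downwards for 2 (3.15%). The median log2 difference of the members was 0.69, against 0.02 over all genes. At day 8, 22 of 30 were higher and 8 lower (48.1% and 51.9% of all 12599 genes), with 11 higher by 1.5-fold or more (11.4%), 3 higher by 2-fold or more (3.72%) and 1 lower by 2-fold or more (3.18%). The median was 0.40, against -0.02 over all genes. These genes were listed with results of these arrays known, so the counts describe the list and are no independent evidence of its direction. In bulk RNA, more cells that carry a transcript and more transcript per cell cannot be told apart.

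**Figure D1:**
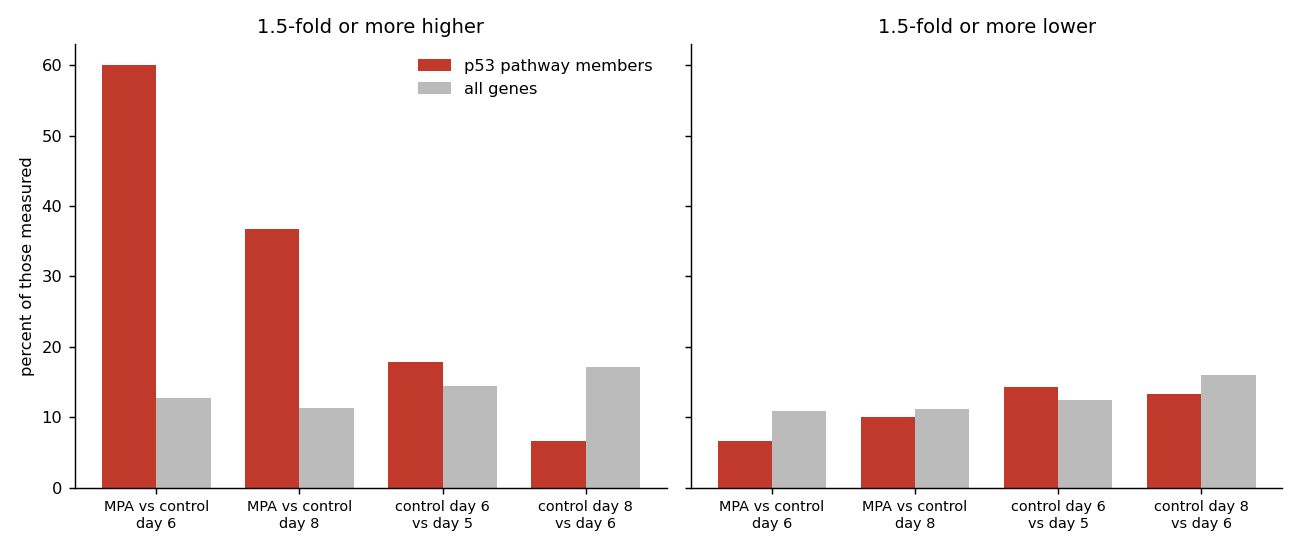
Share of genes at least 1.5-fold higher (left) or lower (right) in 4 comparisons, in percent of the genes measured, for the p53 pathway members (red) and all genes (grey). With MPA at day 6, 18 of 30 members pass on the higher side against 12.8% of all genes. In the untreated cells at day 8 against day 6, 2 of 30 do, against 17.2%.

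Many members were higher at both days. Of the 30, 20 were higher at both days (27.3% of 11007 genes measured at both) and 8 were at least 1.5-fold higher at both (2.41%). Of the others, 3 were lower at both days (25.8%), 5 were higher only at day 6 (25.8%) and 2 higher only at day 8 (21.1%). The 8 were Ccng1, Trp53inp1, Cdkn1a, Btg2, Plk2, Fas, Perp and Eda2r. Only Cdkn1a and Plk2 were 2-fold higher at both days (0.354% of genes). With all probe sets of a gene averaged, Plk2 was 2-fold higher at neither day (log2 differences of 0.75 and 0.50). The other Plk2 probe set lay below the floor on all 5 arrays, so averaging had to lower the Plk2 difference and is no test of it. At day 8 the averages of Ccng1 and Trp53inp1, with 0.49 and 0.48, were under 1.5-fold. Of all 30 members, 22 had the more positive difference at day 6 and 8 had it at day 8, and 53.5% of all genes had it at day 6. The signal was highest on the day 6 MPA array for 15 of 30 members, where 19.4% of 14363 genes had their highest signal.

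A single fit tests the MPA difference across both days. It is a limma model of the MPA and control arrays of days 6 and 8, 4 in all, with a factor for day and 1 residual degree of freedom. Its error comes from how far the MPA differences of the 2 days disagree, moderated by limma with the spread of the other genes, since no group has a repeated array. After Benjamini-Hochberg adjustment over 11599 genes, 0 of 30 members had an adjusted p under 0.05 in limma (0.00862% of all genes did), and the lowest adjusted p among members was 0.418. Unadjusted, 11 members had a p under 0.05 in either direction (6.37% of all genes), all 11 of them higher (3.37%). No single member is therefore called by the test, and the differences below are sizes.

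**Figure D2:**
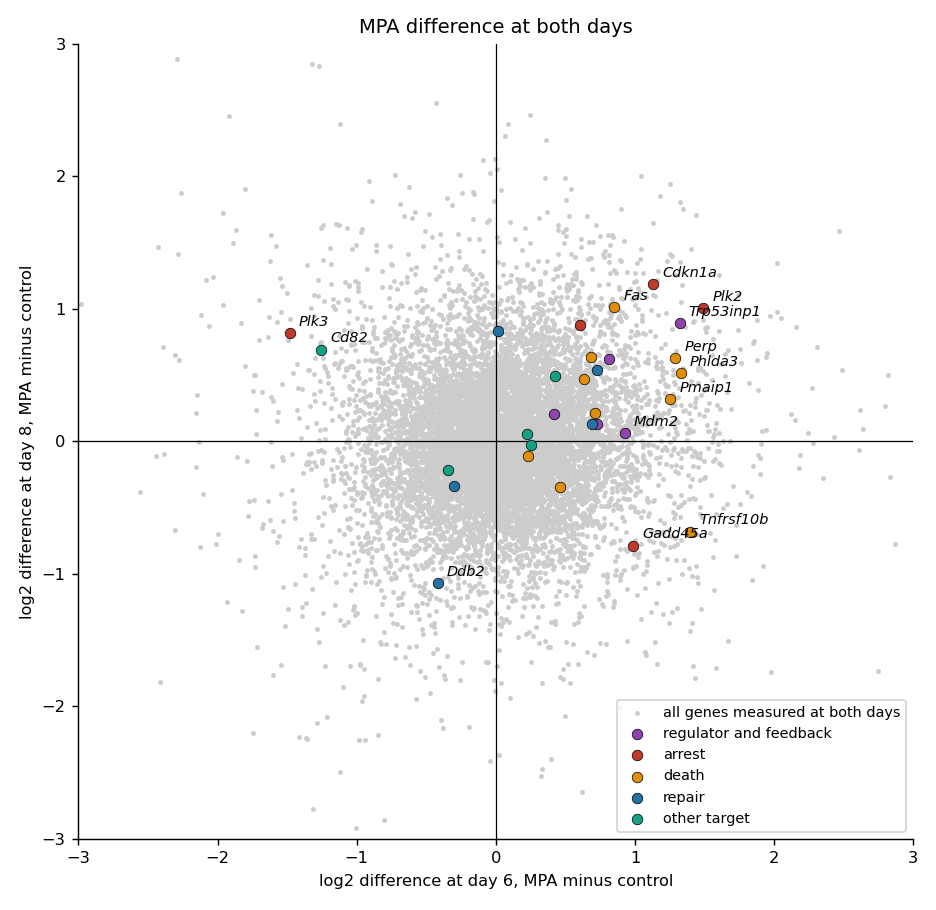
Log2 difference between MPA and control at day 6 (x axis) and day 8 (y axis) for the members, coloured by role, over all genes measured at both days (grey, of which 12 lie outside the axes). Of the 30 members 20 lie in the upper right quadrant, and Cdkn1a, Plk2, Trp53inp1 and Fas lie farthest from its axes.

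Among the regulators and feedback genes all 5 measured were higher at both days (27.3% of all genes were). Their median log2 difference was 0.81 at day 6 and 0.21 at day 8. Trp53inp1 encodes a nuclear protein that promotes p53 phosphorylation and is itself a p53 target. Its signal was 9520 at day 5, 18941 with MPA and 7574 without at day 6, and 10075 with MPA and 5426 without at day 8. The 2.50-fold and 1.86-fold differences stand on an untreated level that was lower at each later day, and the day 6 MPA array was the highest. Its other probe set gave log2 differences of 1.72 at day 6 and only 0.06 at day 8 (218 with MPA, 208 without). There the untreated level was 458 at day 5, 165 at day 6 and 208 at day 8. In limma its mean log2 difference was 1.11 (SE 0.18, adjusted p = 0.418, higher at both days).

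Ccng1, the gene of cyclin G1, a p53 target that acts back on Mdm2, gave 8829 at day 5, 15036 with MPA against 8564 without at day 6, and 10896 with MPA against 7066 without at day 8. On this probe set both MPA arrays were above all 3 untreated arrays, by 1.76-fold and 1.54-fold over the control of the same day. Its 2 further probe sets were also higher with MPA than the control of the same day. Their log2 differences were 0.91 and 1.06 at day 6 and 0.35 and 0.49 at day 8. On both, however, the day 8 MPA array lay below day 5 (2227 against 6726, and 1600 against 1767).

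Mdm2, the ligase that marks p53 for destruction, differed at day 6 and hardly at day 8. Its signal was 1393 at day 5, 2106 with MPA against 1109 without at day 6, and 1530 with MPA against 1463 without at day 8. That is 1.90-fold higher at day 6 and 1.05-fold at day 8, where a second probe set went the other way with a log2 difference of -0.23 after 1.09 at day 6. Ppm1d, of the phosphatase Wip1 that switches p53 signalling off, had the same course, 1.65-fold higher at day 6 and 1.09-fold at day 8. Mdm4, of the partner of Mdm2 that holds p53 inactive, was 1.34-fold and 1.16-fold higher.

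**Figure D3:**
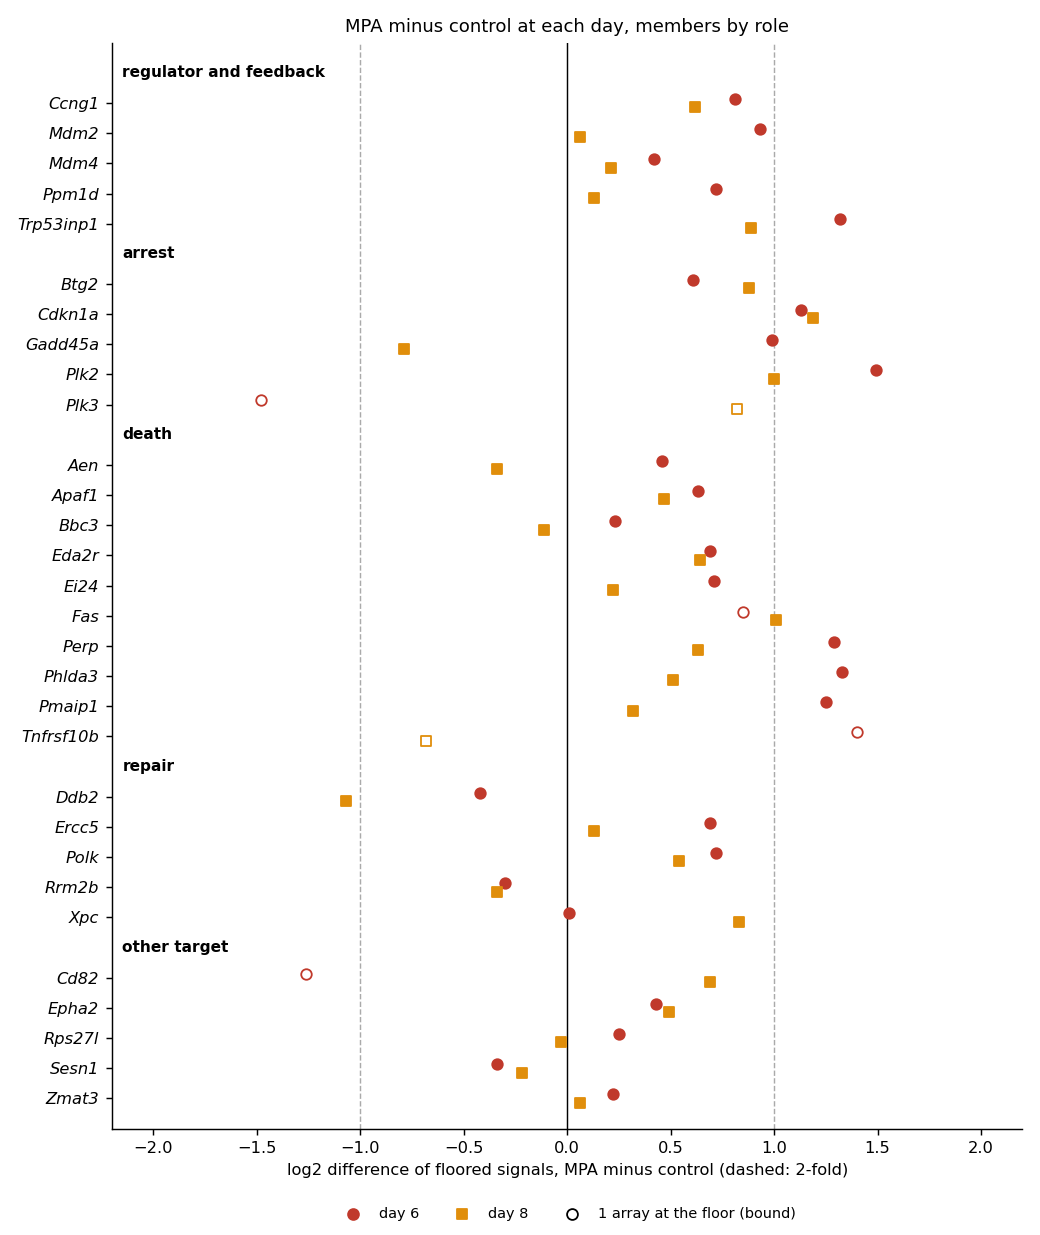
Log2 difference between MPA and control for each of 30 members, grouped by role, at day 6 (circles) and day 8 (squares), with dashed lines at 2-fold and open symbols where 1 array lay at the floor. The death genes all lie right of 0 at day 6, and Gadd45a and Tnfrsf10b lie on opposite sides at day 6 and day 8.

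Of the 5 arrest genes, 4 were higher with MPA at each day, with medians of 0.99 at day 6 and 0.88 at day 8. Of all genes, 51.5% were higher at day 6 and 48.1% at day 8. Cdkn1a encodes p21, the inhibitor of cyclin-dependent kinases through which p53 halts the cycle. Its signal was 3734 at day 5, 4797 with MPA and 2191 without at day 6, and 6169 with MPA and 2711 without at day 8. Both MPA arrays exceeded all untreated ones, and the untreated cells of day 6 and day 8 lay below day 5. The difference was 2.19-fold and 2.28-fold, with a mean log2 difference of 1.16 (SE 0.19, adjusted p = 0.418 in limma, higher at both days). The other Cdkn1a probe set gave log2 differences of 1.46 and 0.89.

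Plk2, a polo-like kinase of the stress response, had 1039 at day 5, 5479 with MPA and 1950 without at day 6, and 5702 with MPA and 2844 without at day 8. It was higher at each later untreated day and higher again with MPA, by 2.81-fold and 2.00-fold (mean log2 difference 1.25, SE 0.21, adjusted p = 0.418 in limma). Its other probe set lay below the floor on all 5 arrays. Btg2, of an antiproliferative protein, gave 2740 at day 5, 3782 with MPA against 2483 without at day 6, and 2807 with MPA against 1527 without at day 8. It was 1.52-fold higher at day 6 and 1.84-fold at day 8, and its other probe set was higher at both days too, by 1.16 and 0.68 on the log2 scale.

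The remaining arrest genes went opposite ways at the 2 days. Gadd45a, a growth arrest and DNA damage gene that also takes part in DNA demethylation, was 1.98-fold higher with MPA at day 6 (1163 against 588) and 1.73-fold lower at day 8 (950 against 1638), with 670 at day 5. The highest Gadd45a array was thus the untreated day 8 one. Plk3, a polo-like kinase, was dim, at 74.1 at day 5, 14.9 with MPA against 242 without at day 6, and 153 with MPA against 30.0 without at day 8. Only 2 of its 5 arrays lay above the floor, so Plk3 was lower by at least 2.79-fold at day 6 and higher by at least 1.76-fold at day 8.

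**Figure D4:**
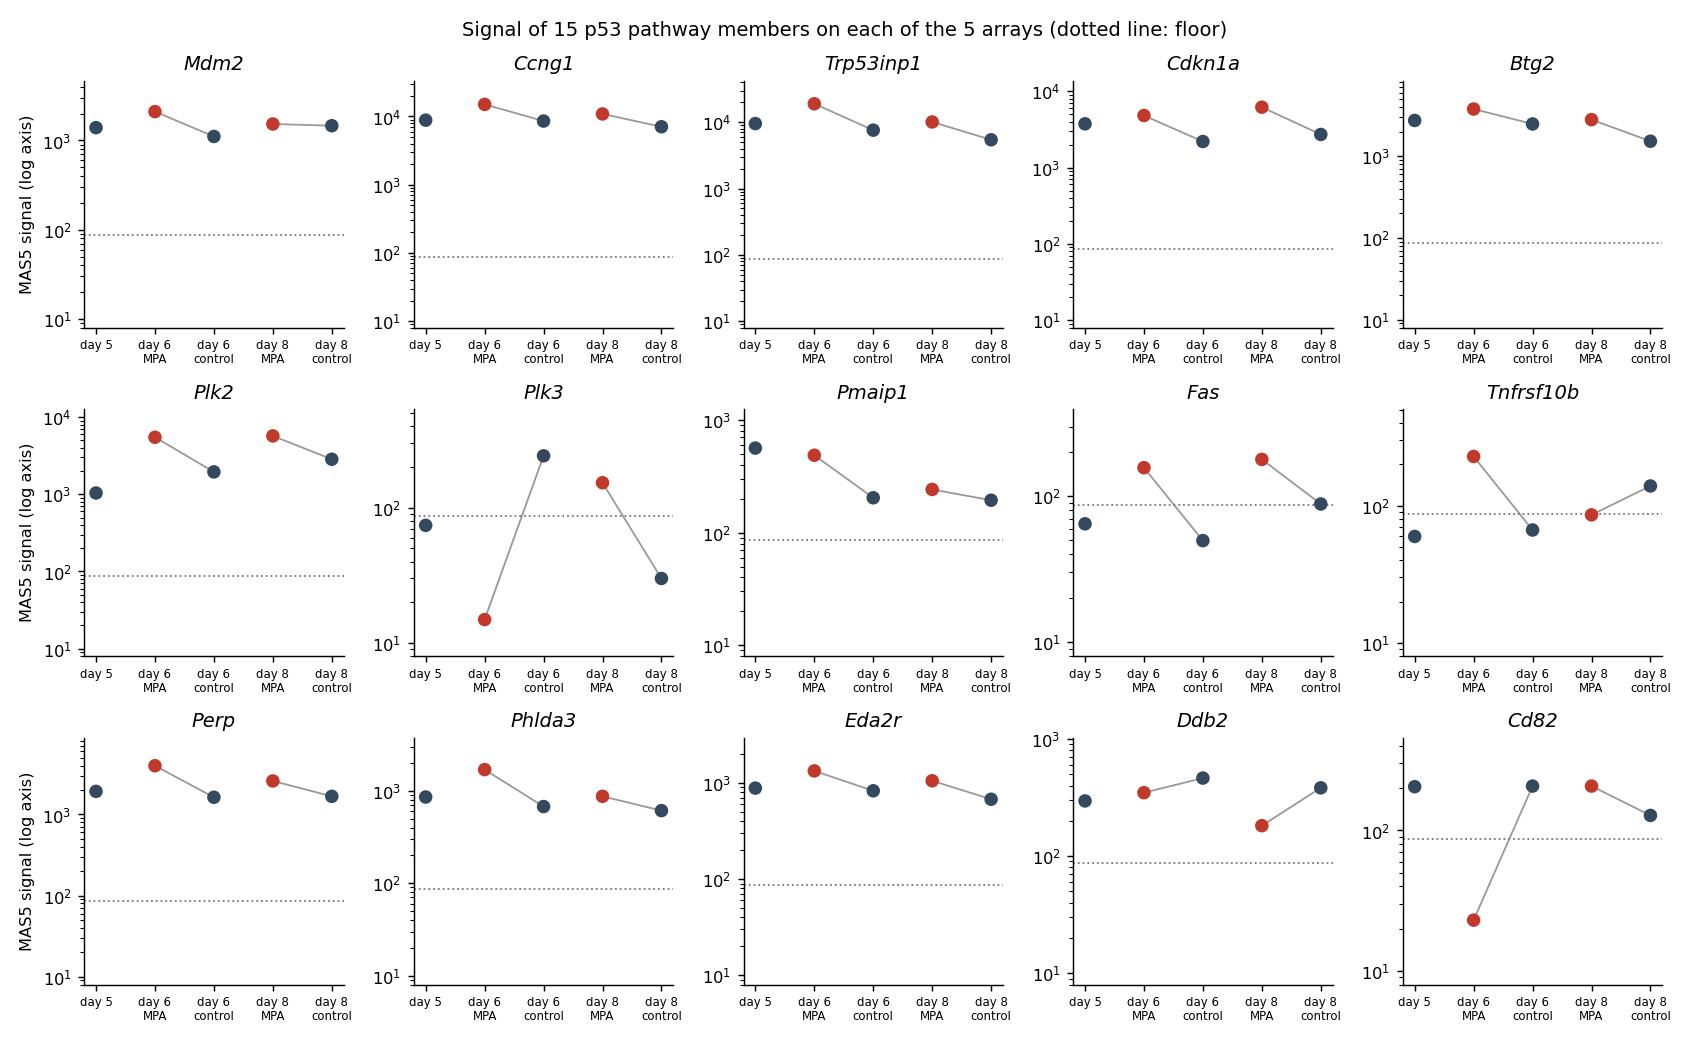
MAS5 signal on a log axis for 15 members on each array, with MPA arrays in red, untreated arrays in dark blue, a grey line joining MPA and control of a day, and a dotted line at the floor. In Mdm2, Ccng1, Trp53inp1, Cdkn1a, Btg2, Plk2, Pmaip1, Fas, Perp, Phlda3 and Eda2r both MPA arrays lie above all untreated arrays of days 6 and 8. Plk3, Fas, Tnfrsf10b and Cd82 have arrays below the floor of 86.8.

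All 10 measured death genes were higher with MPA at day 6 (51.5% of all genes), by a median log2 difference of 0.78. At day 8, 7 of 10 were higher (48.1% of all genes), with a median of 0.40. Perp encodes a membrane protein of desmosomes that takes part in p53-dependent death. It had 1926 at day 5, 3986 with MPA and 1629 without at day 6, and 2589 with MPA and 1673 without at day 8, so both MPA arrays were above all untreated ones (2.45-fold and 1.55-fold).

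Phlda3, of a repressor of the survival kinase Akt, gave 855 at day 5, 1691 with MPA against 674 without at day 6, and 870 with MPA against 609 without at day 8. It was 2.51-fold higher at day 6 and 1.43-fold at day 8, where the MPA array lay near the day 5 level. Pmaip1, of the BH3-only death protein Noxa, had 564 at day 5, 487 with MPA against 204 without at day 6, and 242 with MPA against 194 without at day 8. Its highest array was day 5, and it was 2.39-fold higher with MPA at day 6 and 1.25-fold at day 8.

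Of the receptors, Eda2r, a receptor of the ectodysplasin family, was higher by much the same factor at both days. Its signal was 884 at day 5, 1335 with MPA and 829 without at day 6, and 1054 with MPA and 677 without at day 8, which is 1.61-fold and 1.56-fold higher. Fas, the death receptor for Fas ligand, was dim, with 64.7 at day 5, 157 with MPA and 49.6 without at day 6, and 179 with MPA and 88.5 without at day 8. Both MPA arrays were above the floor, and Fas was at least 1.80-fold higher at day 6 and 2.02-fold at day 8, where the untreated array lay just above the floor.

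Tnfrsf10b, a death receptor for the ligand TRAIL, had 59.6 at day 5, 228 with MPA against 66.4 without at day 6, and 85.6 with MPA against 139 without at day 8. It was at least 2.63-fold higher at day 6, whereas at day 8 it was lower by 1.60-fold or more, and its other probe set was lower at both days (log2 differences of -0.33 and -0.48). Ei24, of a protein of the endoplasmic reticulum, was 1.64-fold and 1.16-fold higher. Apaf1, the scaffold on which caspases are activated, was 1.55-fold and 1.39-fold higher. Aen, of a nuclease that p53 induces, was 1.37-fold higher at day 6 and 1.27-fold lower at day 8. The last of the 10, Bbc3, of the BH3-only protein Puma, differed by log2 0.23 at day 6 and -0.11 at day 8.

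The repair genes went both ways. At each day 3 of 5 were higher and 2 lower, with medians of 0.01 and 0.13. That is near the share of all genes higher, 51.5% at day 6 and 48.1% at day 8. Ddb2, which recognises ultraviolet damage in nucleotide excision repair, was lower at both days. It had 296 at day 5, 348 with MPA against 464 without at day 6, and 182 with MPA against 383 without at day 8, so that it was 1.33-fold and 2.10-fold lower. A second probe set was lower by log2 -0.82 at day 6 and higher by 0.11 at day 8, and with both averaged the day 8 difference was -0.48. Rrm2b, the p53-induced subunit of ribonucleotide reductase, was the other repair gene lower at both days, by 1.23-fold and 1.26-fold. At day 8 the further Rrm2b probe sets went both ways, with log2 differences of 0.12, 0.25 and -0.42.

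Polk, of a DNA polymerase that copies past lesions, was 1.65-fold higher at day 6 and 1.45-fold at day 8. Ercc5, of a nuclease of excision repair, was 1.62-fold and 1.09-fold higher. Xpc, another damage sensor of that pathway, was level at day 6 (1.01-fold) and 1.78-fold higher at day 8.

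The targets with other roles had smaller medians, 0.22 at day 6 and 0.06 at day 8. Cd82, of a tetraspanin that restrains cell movement, had 205 at day 5, 23.0 with MPA and 207 without at day 6, and 207 with MPA and 128 without at day 8. The day 6 MPA array was the only one of the 5 below the floor, so Cd82 was lower by at least 2.39-fold there, and at day 8 it was 1.62-fold higher. Epha2, of an ephrin receptor of epithelial cells, was 1.35-fold and 1.41-fold higher. Sesn1, of a sestrin that restrains the growth kinase mTORC1, was lower by 1.27-fold at day 6 and by 1.16-fold at day 8. Against this, 2 of the other 3 Sesn1 probe sets differed the opposite way at day 6 and all 3 did at day 8. Rps27l, a ribosomal protein gene, was 1.19-fold higher and 1.02-fold lower, and its probe sets may also detect the near-identical Rps27. Zmat3, of an RNA-binding protein, was 1.17-fold and 1.04-fold higher.

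The further probe sets of the members went the same way as the brightest one in 17 of 20 cases at day 6 and in 12 of 23 at day 8, counting those above the floor. Mdm2, Ppm1d, Apaf1 and Ddb2 are among the members with a further probe set that went the other way at day 8.

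Without MPA the members went both ways as the cells differentiated. At day 6 against day 5, 9 of 28 measured members were higher and 19 lower (51.6% and 48.4% of all 12611 genes). Of these, 2 were higher by 2-fold or more (5.46%) and 2 lower by as much (4.40%), with a median of -0.14. Sesn1 and Plk3 were the higher ones, by 2.09-fold and at least 2.79-fold, and Pmaip1 and Epha2 the lower ones, by 2.77-fold and 2.78-fold. At day 8 against day 6, 12 of 30 were higher and 18 lower (51.3% and 48.7% of all 12824 genes), with 1 higher by 2-fold or more (7.07%) and 2 lower by as much (6.43%) and a median of -0.19. Gadd45a was 2.79-fold higher, and Sesn1 and Plk3 were 2.91-fold and at least 2.79-fold lower. These genes are named here after their values were seen.

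The brightest Sesn1 probe set thus had its highest signal in untreated day 6 cells. It gave 1084 at day 5, 2270 at day 6 and 780 at day 8 without MPA, and 1789 and 671 with MPA at day 6 and day 8. Among the untreated arrays its other 3 probe sets were highest at day 6 too, with 903, 799 and 104 there. Over all 5 arrays, however, 2 of them were highest on the day 6 MPA array, at 1050 and 867, and the third on the day 8 MPA array, at 112. The day 6 control array serves in both the MPA comparison and the time course, so the 2 are not independent.

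**Figure D5:**
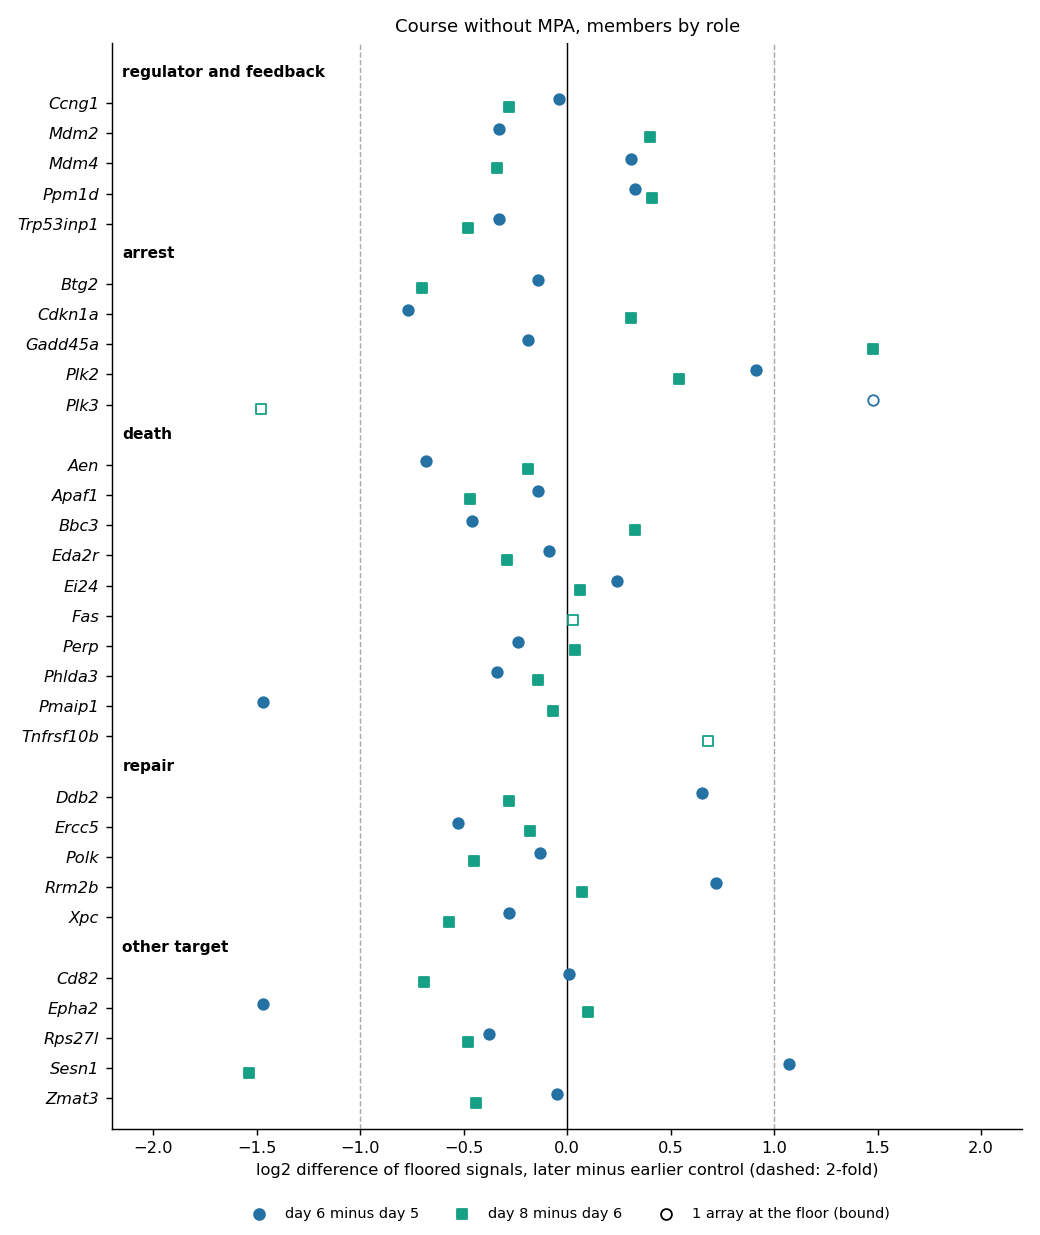
Log2 difference between untreated arrays, day 6 minus day 5 (circles) and day 8 minus day 6 (squares), for the members by role, with open symbols where 1 array lay at the floor. Most members lie between the dashed 2-fold lines, and Sesn1 lies at 1.07 for the first step and -1.54 for the second.

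The other genes of the pathway had medians nearer 0 at day 6. Of 18 genes upstream of p53 that were found, 6 of 16 measured were higher and 10 lower at day 6. At day 8, 7 of 18 were higher and 11 lower, and none was 2-fold apart at either day. Of all genes, 51.5% were higher at day 6 and 48.1% at day 8. Usp7, of a protease that removes ubiquitin from Mdm2 and p53, was 1.44-fold and 1.42-fold lower. Daxx, of a chaperone that binds Mdm2, was 1.45-fold higher and 1.64-fold lower, and the p53 relative Trp73 at least 1.48-fold lower at day 8. In limma 0 of 17 had an adjusted p under 0.05 (lowest adjusted p = 0.693), and at an unadjusted p under 0.05 0 were higher and 2 lower.

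A list of 19 further p53 targets had 15 higher and 4 lower at day 6 (median 0.27), where 51.5% of all genes were higher. At day 8, 7 of 15 were higher and 8 lower (median -0.02), near the 48.1% of all genes that were higher. Ephx1, of an epoxide hydrolase, was 3.53-fold higher at day 6 (365 with MPA, 104 without) and below the floor on both day 8 arrays. Tgfa, a growth factor gene, was 1.90-fold and 1.62-fold higher, and Bid, of a BH3-only protein, 1.60-fold higher and 1.80-fold lower. In limma 0 of 19 had an adjusted p under 0.05 (lowest adjusted p = 0.802), and 0 passed unadjusted in either direction.

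The 14 cell cycle genes that p53 lowers through p21 and the DREAM complex had 12 lower and 2 higher at day 6 (median -0.24). At day 8, 11 were lower and 3 higher (median -0.35). Of all genes, 48.5% were lower at day 6 and 51.9% at day 8. None was 2-fold apart with MPA. Nek2, a centrosome kinase, was 1.26-fold and 1.67-fold lower, Cdc25c, a phosphatase of mitotic entry, 1.15-fold and 1.74-fold lower, and the mitotic factor gene Foxm1 1.68-fold lower and 1.16-fold higher. In limma 0 of 14 had an adjusted p under 0.05 (lowest adjusted p = 0.732), with 0 higher and 1 lower unadjusted. In untreated cells all 14 were lower at day 8 than at day 6 (48.7% of all genes), by a median of -0.93.

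Markers of some cell types moved with MPA beside these genes, and their part in the members' differences was not tested. With MPA, 51.5% of all genes were higher and 48.5% lower at day 6, and 48.1% higher and 51.9% lower at day 8. Of 8 epithelial markers 6 were higher at day 6 and all 8 at day 8, and all 8 lay above the floor on every array. Their summed signal was 86873 with MPA and 67251 without at day 6, and 126394 with MPA and 70873 without at day 8. Of 7 neural markers all 6 measured were lower at day 6 and all 7 at day 8, with a summed signal of 683 with MPA and 2208 without at day 6, and 1606 with MPA and 10334 without at day 8. Perp and Epha2 are also genes of epithelia. Of 6 definitive endoderm markers, 4 of 5 measured were higher and 1 lower at day 6, and 2 were higher and 2 lower at day 8. Their summed signal was 14950 with MPA and 8287 without at day 6, and 13820 with MPA and 8243 without at day 8. Sox17 was 2.23-fold higher at day 6 and 3.20-fold lower at day 8, and Foxa1 was 1.51-fold and 2.21-fold higher. Of 8 pancreas and islet markers, 3 of 4 measured were higher and 1 lower at day 6, and 6 were higher and 2 lower at day 8. Their summed signal was 1754 with MPA and 1707 without at day 6, and 4944 with MPA and 1924 without at day 8. The glucagon gene Gcg reached 2572 with MPA and 271 without at day 8, a 9.49-fold difference. Neurog3, of endocrine progenitors, was 6.71-fold higher there (1295 with MPA, 193 without), and the somatostatin gene Sst 2.91-fold lower (250 with MPA, 727 without). All 3 lay below the floor on both day 6 arrays. Gcg and Neurog3 made up most of the day 8 sum with MPA. Most of both day 6 sums was the marker Mnx1, with 1225 with MPA and 1518 without. Nkx6-1 and Ins2, also counted as higher at day 8, had 103 and 123 with MPA, not far above the floor. Pdx1, of a factor that marks the early pancreas, lay near the floor at day 8, with 90.4 with MPA and 78.6 without, and far below it on the other arrays. Of 6 mesenchyme and fibroblast markers, 2 of 5 measured were higher and 3 lower at each day. Their summed signal was 1633 with MPA and 1876 without at day 6, and 9613 with MPA and 9730 without at day 8. Of 6 markers of the pluripotent epiblast, 2 of 5 measured were higher and 3 lower at day 6, and 1 of 4 higher and 3 lower at day 8. Of 4 endothelium and blood markers, 2 were measured at day 6, 1 higher and 1 lower, and 1 at day 8, which was lower. The Gapdh ratio of 3' to 5' signal, a sign of RNA integrity, was 1.31 with MPA and 1.19 without at day 6, and 1.57 with MPA and 1.55 without at day 8. The same ratio for beta-actin was 3.06 with MPA and 3.04 without at day 6, and 2.71 with MPA and 2.81 without at day 8. At day 5 it was 2.08, and that of Gapdh 1.08, so day 5 and day 6 differed in this measure too.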

How the data were processed

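Total RNA was labelled with biotin by a 3' IVT kit and hybridised to 1 Affymetrix mouse array per sample, per the labels' protocols. The deposited value is a linear intensity per probe set, made by the authors with MAS5 per the submitters' processing notes. The sources used here give neither its version nor its settings. The 2% trimmed mean, averaged over the 5 arrays, was 500. Of 45101 probe sets, 64 were controls, 34945 had 1 gene symbol in the platform annotation, 932 had several and 9160 were unnamed here. By gene identifier 34741 matched RefSeq (GRCm38.p6, used for names and promoter sequence).

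Each gene took its brightest probe set. Signals under the floor (50th percentile) were raised to it, and a gene was measured in a comparison with at least 1 array above it. Where 1 of 2 arrays lay at the floor, the fold is written "at least", and with both there no fold is given. Groups came from the labels. The limma fit (limma 3.58.1, R 4.3.3, lmFit and eBayes with trend and robust) ran on genes with at least 2 of 4 arrays above the floor. It was also run on simulated data with normal noise, no day effect and the same MPA shift at both days. Such data cannot show how reliable the fit is on these arrays. Other steps used Python 3.11.15, numpy 2.4.6 and pandas 2.3.3. Arrays have no read depth.

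Members, roles and lists were chosen with earlier results of these data known. Signals on every array are printed for Mdm2, for members 2-fold apart at either day and for those at least 1.5-fold apart the same way at both, and other members by fold. Further lists are given by counts with up to 3 examples, those with the largest mean absolute MPA difference. Cell type markers are given by counts and, for most lists, summed signal. Alternatives were other scaling (quantile, median centring), a floor at the 25th or the 65th percentile, log2(signal + floor), averaging probe sets, leaving out probe sets ending in _s_at, _x_at or _a_at, and, for limma, other day terms, plain eBayes and no filter.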

Additional observations from a re-analysis of the deposited data

Results flagged for a closer look

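The MPA difference had opposite signs at day 6 and day 8 in 7 members, and with 1 array per group this difference between the days was not tested. Of all genes measured at both days 25.8% were higher at day 6 and lower at day 8, as 5 members were, and 21.1% were lower at day 6 and higher at day 8, as 2 members were. Gadd45a had log2 differences of 0.99 at day 6 and -0.79 at day 8, and Tnfrsf10b of 1.40 and -0.68. A second probe set of Tnfrsf10b was lower at both days. Aen had 0.46 and -0.34, Bbc3 0.23 and -0.11, and Rps27l 0.25 and -0.03. The 2 members that were lower first were Plk3, with -1.48 and 0.82, and Cd82, with -1.26 and 0.69. Both were below the floor on the day 6 MPA array.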

How the results depend on the processing

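Most measured members stayed higher with MPA. Over the scaling, floor and probe set alternatives 22 to 25 members were higher at day 6 (25 as reported) and 20 to 23 at day 8 (22). Those 2-fold higher were 5 to 8 at day 6 (7) and 2 to 4 at day 8 (3). These are counts of unlike totals. Without _s_at, _x_at and _a_at probe sets 26 members were measured at each day. With the floor at the 65th percentile 29 were at day 6 and 28 at day 8, and otherwise 30. The day 6 median ran from 0.59 to 0.69. The day 8 median ran from 0.22 to 0.49, with 0.22 at a floor on the 65th percentile and 0.24 for the mean over probe sets. Of the 2-fold lower members, 0 were left at day 6 with the floor at the 65th percentile, and 0 at day 8 with log2(signal + floor), with the mean over probe sets and without _s_at, _x_at and _a_at probe sets. In untreated cells at day 6 against day 5, 1 member was 2-fold higher with the floor at the 65th percentile and 1 with the mean over probe sets, where the median was -0.27. There 1 was 2-fold lower without _s_at, _x_at and _a_at probe sets. At day 8 against day 6, 2 were 2-fold higher with the floor at the 25th percentile, 1 was 2-fold lower with that at the 65th, and the median was -0.02 for the mean over probe sets. In limma 0 members had an adjusted p under 0.05 under any of the 11 alternatives. The members higher at an unadjusted p under 0.05 (11) ran from 4 to 12, with 6 without a day term and 4 without a filter. Tnfrsf10b turned to a log2 difference of -0.33 at day 6 without _s_at, _x_at and _a_at probe sets, where its limma mean was -0.40, and to a limma mean of -0.02 with the mean over probe sets. The limma mean of Cd82 turned to 0.00 (above it by less than 0.01) with the floor at the 65th percentile. The cause was not tested. Dim members such as Plk3, Fas, Tnfrsf10b and Cd82 have folds that the floor sets. The limma fit pairs MPA and control by day. By replicate number, no paired analysis was possible because each group holds 1 array, and for the same reason no array could be left out of a comparison.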
